A study of Mus musculus with 26 samples.

Results

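The transcripts of 10 genes of the spindle assembly checkpoint and its mitotic kinases (Mad2l1, Bub1, Bub1b, Bub3, Ttk, Cdc20, Aurka, Aurkb, Aurkc and Plk1) were examined in single blastomeres of the mouse 8-cell embryo. The genes were chosen by name for their role in chromosome segregation, a rule that uses no measured value, though with earlier results of these data known, and all 10 were found among the 55487 genes of the table. The embryos were C57BL/6, made by in vitro fertilization, with no treatment named, and their blastomeres were separated by hand. RNA and DNA of the same cell were read by scRR-seq, in which magnetic beads hold the chromatin of the lysed cell while the RNA stays in solution. RNA values were held for 3 cells of embryo 1 (cells 1, 6 and 7) and 6 cells of embryo 2 (cells 2, 3, 5, 6, 7 and 8), in TPM, a unit that gives each transcript as a share of the RNA of a cell after its length is divided out. The study classed embryo 1 cells as G1 or G2/M and embryo 2 cells as S phase, so that embryo and cell cycle stage cannot be told apart.

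The checkpoint delays anaphase until every chromosome is attached to the spindle. Kinases at unattached kinetochores (TTK, also called MPS1, and BUB1) help to load MAD2 and BUBR1, which together with BUB3 capture CDC20 in the mitotic checkpoint complex. Captured CDC20 cannot turn on the anaphase-promoting complex, the ubiquitin ligase that marks cyclin B and securin for destruction. Aurora kinases and PLK1 build the spindle, correct wrong attachments and drive mitotic entry. Aurora C is the member of its family best known from germ cells and the early embryo, and errors of chromosome segregation are frequent in the cleavage divisions of mammals.

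Each embryo is 1 biological replicate, so no test of the embryos was made, and SDs describe the spread between cells of an embryo. The numbers that close the cell labels form a range from 11 to 17 (cell 1 of embryo 1 and cells 2 and 3 of embryo 2) and a range from 20 to 25 (2 cells of embryo 1 and 4 of embryo 2), which the study's sample list gives as protocols scRR3 and scRR1 with different lysis volumes. Cells of the lower range had 12411 to 13319 genes above 1 TPM and 5.98% to 6.82% of TPM in mitochondrial genes, against 11058 to 11960 genes and 4.28% to 18.2% in the upper range. Within the upper range the mitochondrial share also separated the embryos, at 4.28% and 6.77% in embryo 1 and from 9.31% to 18.2% in embryo 2. With TPM rescaled to nuclear protein-coding genes, which leaves these genes out, the difference of embryo 2 minus embryo 1 on log2(TPM + 1) was -0.85 for Mad2l1 and 0.95 for Bub1, against -0.90 and 0.90 as deposited. The share of 40 kb bins called replicated among bins with a state, the percentage replication score, was 0.00385% to 3.54% in embryo 1 and 62.4% to 80.5% in embryo 2. All 8 genes listed for cleavage embryos (Pou5f1, Tfap2c, Tead4, Sall4, Dppa3, Nlrp5, Khdc3 and Zp3) were above 1 TPM in every cell, with a summed level of 2110 to 3245 TPM. Of 8 genes of cumulus and granulosa cells, 6 were listed at 0 in every cell, and the summed level was 0 to 6.13 TPM, with the highest value from Ptx3 in cell 6 of embryo 2.

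The promoters of these genes share letters that the choice by name did not use. The cell cycle genes homology region (CHR), with the letters TTTGAA or TTCGAA, lies close to the start of many genes of late cell cycle phases, and CCAAT is the motif of the factor NF-Y. RefSeq promoters of 300 bases on GRCm38.p6 (250 before the start and 50 from the start on) were held for 9 of the 10 genes, all but Aurkb. On either strand, a CHR lay between 60 bases before the start and the end of the promoter in 7 of those 9, against 5.90% of 32851 promoters with this length, and CCAAT lay anywhere in the promoter in 8 of 9, against 37.4%. The window was set after the matches in these genes were seen, and over the whole promoter the CHR counts were 7 of 9 and 19.2%. Mad2l1 had neither motif in its promoter and Aurkc had CCAAT but no CHR. All counts are from RefSeq starts. The Mad2l1 promoter ends at chr6:66535270, before the gene start given below (chr6:66535390), and the bases around that start were not searched. These are matches of letters and not shown to be bound.

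The 7 promoters with a CHR near the start are shown from 90 bases before the start to 50 bases from it, since these are the genes the shared motif concerns. They read 5′ to 3′ along the gene, with CHR and CCAAT matches in capitals (TTCAAA and ATTGG are the reverse strand forms), and no CHR overlapped a CCAAT. The stretches are chr2:118598121-118598260 (+ strand) for Bub1b, chr7:131560280-131560419 (+ strand) for Bub3, chr2:127831810-127831949 (- strand) for Bub1, chr9:83834599-83834738 (+ strand) for Ttk, chr4:118437294-118437433 (- strand) for Cdc20, chr2:172370521-172370660 (- strand) for Aurka and chr7:122159345-122159484 (+ strand) for Plk1.
Bub1b: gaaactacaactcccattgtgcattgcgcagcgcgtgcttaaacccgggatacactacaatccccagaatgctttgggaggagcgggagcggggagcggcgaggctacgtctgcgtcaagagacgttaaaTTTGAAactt
Bub3: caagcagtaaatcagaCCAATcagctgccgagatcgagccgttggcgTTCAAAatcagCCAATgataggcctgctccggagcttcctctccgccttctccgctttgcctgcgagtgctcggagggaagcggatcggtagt
Bub1: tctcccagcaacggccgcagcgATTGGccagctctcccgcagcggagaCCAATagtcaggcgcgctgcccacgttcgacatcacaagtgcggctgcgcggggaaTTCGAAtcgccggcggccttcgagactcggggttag
Ttk: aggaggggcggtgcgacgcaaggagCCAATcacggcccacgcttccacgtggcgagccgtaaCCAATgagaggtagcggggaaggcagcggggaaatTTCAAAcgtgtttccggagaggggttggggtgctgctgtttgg
Cdc20: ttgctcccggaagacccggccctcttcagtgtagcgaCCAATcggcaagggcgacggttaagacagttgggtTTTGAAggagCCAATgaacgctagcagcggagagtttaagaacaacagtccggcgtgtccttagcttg
Aurka: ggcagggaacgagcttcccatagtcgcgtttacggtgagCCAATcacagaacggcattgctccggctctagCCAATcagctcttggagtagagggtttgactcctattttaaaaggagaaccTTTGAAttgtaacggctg
Plk1: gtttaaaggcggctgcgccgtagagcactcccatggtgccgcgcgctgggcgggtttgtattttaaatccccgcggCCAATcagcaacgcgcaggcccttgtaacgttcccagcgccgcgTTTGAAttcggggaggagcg
Counted from 0 at the start base, the CHR began at 40 in Bub1b, 14 in Bub1, 7 in Ttk, 32 in Aurka and 30 in Plk1, all downstream of the start. It began upstream of the RefSeq start in the others, at -43 in Bub3 and -18 in Cdc20. Bub1 alone had the TTCGAA form in this window. Bub3 has a further RefSeq start downstream, from which its CHR lies at -167, outside the window. The span given below for Bub3 begins at chr7:131560222, before the whole stretch shown. From that base the CHR of Bub3 lies downstream and outside the window. The span given below for Aurka, on the - strand, begins at chr2:172370535, within its CHR. From that base the CHR of Aurka begins upstream.

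Every one of the 10 genes was above 1 TPM in all 9 cells, as were 53.0% of the 13562 nuclear genes with a mean above 1 TPM. Cdc20 and Aurka were the most abundant, and their mean levels stood above those of 96.7% and 96.0% of these genes. Ttk was the least abundant, above 60.8% of them. On log2(TPM + 1), the order of mean levels was Cdc20, Aurka, Plk1, Mad2l1, Bub3, Aurkc, Bub1, Aurkb, Bub1b and Ttk. Only the step from Aurka to Plk1 exceeded the spread of the difference between cells, with Aurka higher by 1.296 ± 0.473 (SD, n = 9 cells) on log2(TPM + 1) and higher in 9 of 9 cells. The step from Cdc20 to Aurka was 0.22 ± 0.49 (SD, n = 9), with Cdc20 higher in 7 of 9 cells. The other neighbours differed by less than their spread. The plot of levels by cell shows these groups.

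**Figure D1:**
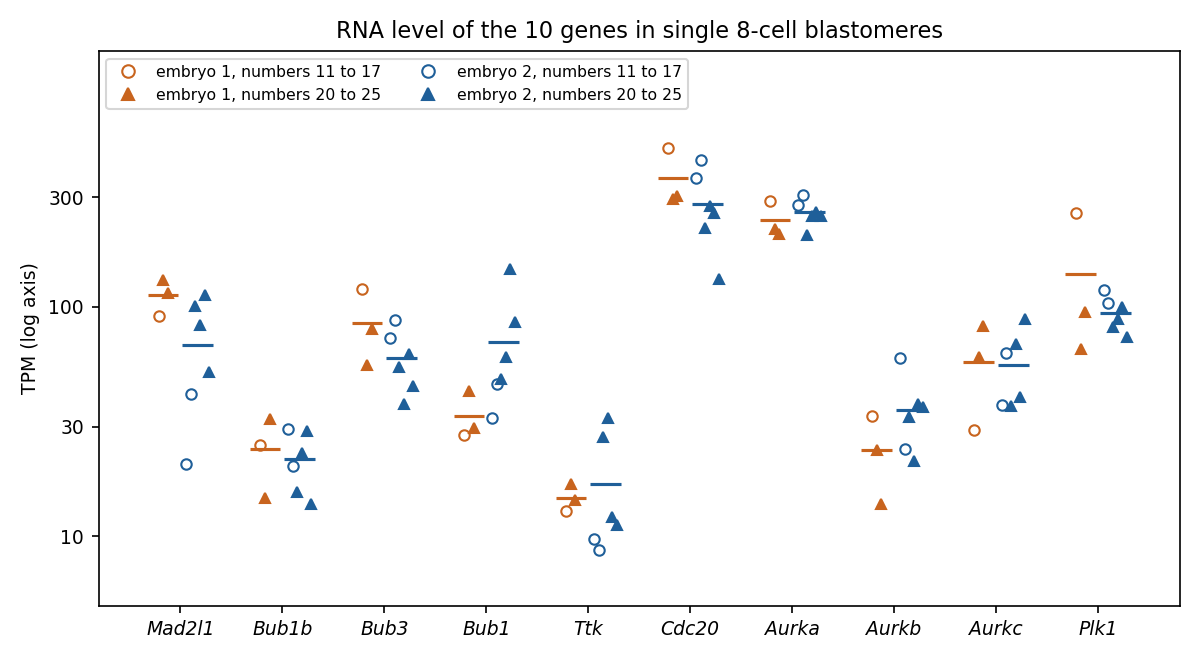
TPM on a log axis for each of the 10 genes in each of the 9 cells, with embryo 1 in orange and embryo 2 in blue, open circles for label numbers 11 to 17, filled triangles for 20 to 25 and bars at the mean of an embryo. Cdc20 and Aurka lie at 132 TPM or more in every cell, and the open circles of Mad2l1 lie below the triangles of their embryo while those of Cdc20, Bub3 and Plk1 lie above.

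Among the checkpoint complex subunits, Mad2l1, which encodes MAD2 (chr6:66535390-66547220, mm10, + strand), was at 91.0, 131 and 115 TPM in cells 1, 6 and 7 of embryo 1, the order used for embryo 1 throughout. In embryo 2 it ranged from 20.6 through a median of 67.4 to 113 TPM. The means were 113 ± 20.3 (SD, n = 3 cells) and 68.5 ± 36.1 TPM (SD, n = 6 cells), and the cells of both embryos overlapped. The lowest Mad2l1 values of all, 20.6 and 41.7 TPM, were those of cells 2 and 3 of embryo 2, the lower number range. On embryo 2 minus embryo 1, the difference was -0.90 on log2(TPM + 1), beside a pooled SD between cells of 0.78.

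Bub1b, which encodes BUBR1, the pseudokinase that holds CDC20 (chr2:118598211-118641591, + strand), was at 24.9, 14.7 and 32.5 TPM in embryo 1 and from 13.8 through 21.6 to 29.5 TPM in embryo 2. The cells of both embryos overlapped, and the difference of -0.12 was below its pooled SD of 0.47. Bub3, the adaptor that brings BUB1 and BUBR1 to kinetochores (chr7:131560222-131571895, + strand), was at 119.9, 55.6 and 80.00 TPM in embryo 1 and from 37.7 through 58.5 to 87.2 TPM in embryo 2. Cell 1 of embryo 1 stood above all other cells. The Bub3 difference was -0.48 beside a pooled SD of 0.47.

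Of the checkpoint kinases, Bub1, which marks centromeric histone H2A (chr2:127801122-127831865, - strand), was at 27.7, 42.9 and 29.8 TPM in embryo 1. In embryo 2 it ranged from 32.9 through 54.5 to 146 TPM, with the highest values in cells 7 and 8. The means were 33.5 ± 8.25 (SD, n = 3) and 70.1 ± 41.5 TPM (SD, n = 6). This was the largest difference toward embryo 2 among the 10 genes, 0.90 on log2(TPM + 1) with a pooled SD of 0.66, and only cell 2 of embryo 2 (32.9 TPM) lay within the range of embryo 1. Ttk, the kinase that starts the signal at kinetochores (chr9:83834689-83872389, + strand), was at 12.9, 16.96 and 14.4 TPM in embryo 1 and from 8.74 through 11.7 to 32.9 TPM in embryo 2. Cells 5 and 6 of embryo 2 (27.2 and 32.9 TPM) lay above all other cells and cells 2 and 3 (9.79 and 8.74 TPM) below, so that the mean difference was 0.02 with a pooled SD of 0.65.

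Cdc20, the activator that the checkpoint complex captures (chr4:118432901-118437352, - strand), was at 492, 295 and 304 TPM in embryo 1 and from 132 through 266 to 435 TPM in embryo 2. Its mean was 364 ± 111 (SD, n = 3) and 281 ± 107 TPM (SD, n = 6), and the difference of -0.43 was below the pooled SD of 0.55. Cdc20 was above each of its partners in every cell. It exceeded Mad2l1 by 2.19 to 17.7 times, Bub3 by 2.91 to 7.30 times and Bub1b by 8.88 to 21.5 times. The Cdc20 to Mad2l1 ratio was 17.7 and 10.4 in cells 2 and 3 of embryo 2 and 5.41 in cell 1 of embryo 1, against 2.19 to 3.31 in the 6 cells of the upper number range. The ratio of Bub3 to the sum of Bub1 and Bub1b was 2.28, 0.967 and 1.28 in embryo 1 and 0.357 to 1.31 in embryo 2. These are ratios of RNA over all transcripts of a gene, coding or not, and say nothing of protein. The main coding transcripts Cdc20-201 and Mad2l1-201 were at 411 and 65.5 TPM in cell 1 of embryo 1. In cell 7 of embryo 1 they were at 259 and 32.1 TPM, so over them the ratio did not split by number range. Bub3-201, the main coding transcript of Bub3, was listed at 0 in cell 6 of embryo 2.

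Aurka, the spindle pole kinase (chr2:172356190-172370535, - strand), was the steadiest of the 10 genes. It was at 289, 218 and 207 TPM in embryo 1 and from 205 through 254 to 306 TPM in embryo 2, and its highest cell was 1.49 times its lowest. Its coefficient of variation over 9 cells was 14.3%, against a median of 39.98% for the 10 genes and 41.4% for the 5314 genes with a mean at or above the lowest of theirs. That set starts at 16.3 TPM and was not matched to the mean level of Aurka, 251 TPM. The embryo difference was 0.12 with a pooled SD of 0.21.

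Aurkb, the kinase of the chromosomal passenger complex (chr11:69045647-69051664, + strand), was at 33.3, 23.9 and 13.8 TPM in embryo 1 and from 21.2 through 35.0 to 59.9 TPM in embryo 2. The difference of 0.57 was just beyond its pooled SD of 0.55, and the embryos overlapped. Aurkc, its close relative (chr7:6995300-7003091, + strand), was at 29.1, 60.4 and 82.3 TPM in embryo 1 and from 36.8 through 51.8 to 88.4 TPM in embryo 2, with a difference of 0.00 and a pooled SD of 0.60. Aurkc was above Aurkb in 7 of 9 cells. The exceptions were cell 1 of embryo 1 and cell 2 of embryo 2, both of the lower number range.

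Aurka made up 74.0% ± 4.76 (SD, n = 9 cells) of the summed TPM of the Aurora kinases, Aurkc 16.7% ± 6.41 and Aurkb 9.28% ± 3.55. The share of Aurkc was lowest in cell 1 of embryo 1 (8.29%) and highest in cell 7 of the same embryo (27.1%). Aurkb and Aurkc encode near relatives, and reads of stretches that both share could be divided between them only by the estimates of RSEM.

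Plk1, the polo-like kinase of mitotic entry (chr7:122159439-122169873, + strand), was at 257, 65.7 and 95.3 TPM in embryo 1 and from 73.6 through 94.2 to 119 TPM in embryo 2. Cell 1 of embryo 1 was above every other cell, and the remaining 8 lay between 65.7 and 119 TPM. The difference of -0.33 (pooled SD 0.58) became 0.23 without that cell. The same cell held the highest values of Bub3 and Cdc20 as well.

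Between the embryos, 0 of the 10 genes differed by 2-fold or more, against 7.59% of 13562 genes higher and 10.7% lower in embryo 2. No gene of the 10 had all cells of one embryo above all of the other, against 0.833% of genes higher and 2.52% lower. The differences were above 0 for 5 genes and below 0 for 5, with a median of -0.06, beside -0.04 over all genes compared. Only Mad2l1, Bub1, Bub3 and Aurkb differed by more than their pooled SD, and this list depended on the scaling. Bub3 left it with TPM rescaled to nuclear protein-coding genes (-0.43, pooled SD 0.44). With each cell centred on its own median, Mad2l1 left it (-0.81, pooled SD 0.91) and Aurka joined it (0.21, pooled SD 0.19). Over protein-coding transcripts alone, the difference of Bub1 was 0.71 with a pooled SD of 0.70. Mad2l1 passed 2-fold when cell 1 of embryo 1 (-1.04), cell 5 of embryo 2 (-1.05) or cell 7 of embryo 2 (-1.08) was left out, and Bub1 when cell 6 of embryo 1 (1.08) or cell 2 of embryo 2 (1.07) was left out. Without cell 1 of embryo 1 the cells of both embryos did not overlap for Mad2l1, and without cell 6 of embryo 1 or cell 2 of embryo 2 they did not for Bub1. On the main coding transcripts, the cells overlapped for Mad2l1-201 without cell 1 of embryo 1, and for Bub1-201 without cell 2 of embryo 2. Bub1-201 without cell 6 of embryo 1 still did not overlap.

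**Figure D2:**
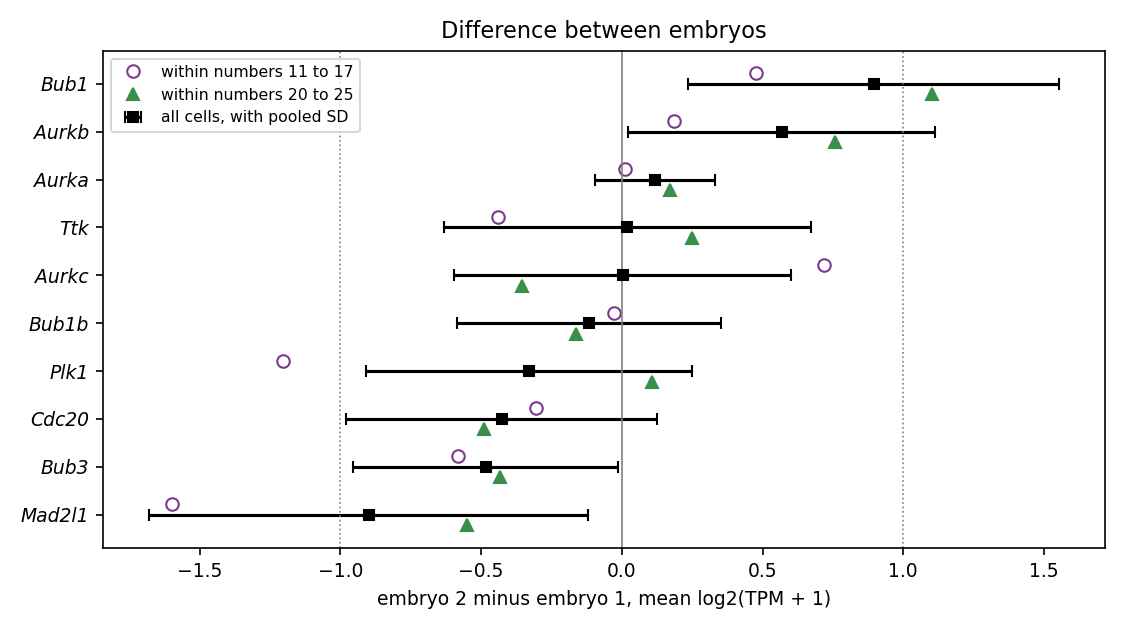
Mean log2(TPM + 1) of embryo 2 less that of embryo 1 for the 10 genes, with squares and pooled SD bars for all 9 cells, open circles for the 3 cells of numbers 11 to 17 and triangles for the 6 cells of numbers 20 to 25. Dotted lines mark 2-fold, which no square reaches, while Mad2l1 and Plk1 pass it within the lower range and Bub1 within the upper.

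Within the number ranges, 7 of the 10 genes kept the sign of the difference. Within numbers 11 to 17, where embryo 1 has 1 cell, the difference was -1.60 for Mad2l1 and -1.20 for Plk1 on log2(TPM + 1). Within numbers 20 to 25, where the mitochondrial share was higher in every cell of embryo 2, the difference of Mad2l1 was -0.55 and that of Bub1 1.10. There Bub1 was higher in every cell of embryo 2, as were 5.93% of genes. Mad2l1 and Cdc20 were lower in every cell, as were 8.72% of genes. Over the main coding transcripts, the embryos overlapped there for each of these genes. In cell 6 of embryo 2, Bub1-201 was at 37.3 TPM and Cdc20-201 at 253.8 TPM, against 42.9 and 250.8 TPM in cell 6 of embryo 1. Mad2l1-201 was at 87.2 TPM in cell 5 of embryo 2 and 75.9 TPM in cell 6 of embryo 1. Plk1, Ttk and Aurkc had opposite signs in both ranges, Plk1 at 0.11, Ttk at 0.25 and Aurkc at -0.36 within numbers 20 to 25.

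The split by label number divided the 10 genes into groups. In both embryos Bub3, Cdc20, Aurka and Plk1 were higher in every cell of the lower range than in any cell of the upper, 4 of 10 genes against 8.96% of all genes compared. Mad2l1, Bub1 and Ttk were lower in every cell, 3 of 10 genes against 1.96%. These counts use TPM over all transcripts of a gene, coding or not. In embryo 1, the main coding transcript of Mad2l1 (Mad2l1-201) was at 65.5 TPM in cell 1 and 32.1 TPM in cell 7. In embryo 2, that of Bub1 (Bub1-201) was at 37.5 TPM in cell 3 and 37.3 TPM in cell 6. So Mad2l1 and Bub1 overlapped over these transcripts, while Ttk-201 stayed lower in every cell. Of the higher genes, Aurka overlapped too, with Aurka-203 at 235 TPM in cell 2 and 258 TPM in cell 7 of embryo 2. Aurka-201 and Aurka-202, also coding, were each at 18.6 TPM in that cell 2 and at 0 in cell 7. Bub3-201, Cdc20-201 and Plk1-201 stayed higher in every cell of the lower range. Averaged over the embryos, the lower minus upper difference on log2(TPM + 1) was 1.03 for Plk1, 0.81 for Cdc20, 0.76 for Bub3, 0.36 for Aurka, -0.60 for Ttk, -0.67 for Bub1 and -0.96 for Mad2l1. Only Plk1 passed 2-fold, against 17.1% of genes higher and 4.82% lower in the lower range, and which gene passed depended on the cells and the scaling. Without cell 1 of embryo 1, which leaves embryo 2 alone, Plk1 fell to 0.38 and Mad2l1 passed at -1.48. Plk1 also no longer passed without cell 6 of embryo 1 (0.90), cell 2 of embryo 2 (0.99) or cell 8 of embryo 2 (0.997), nor with TPM rescaled to nuclear protein-coding genes (0.992). Mad2l1 passed in its place without cell 8 of embryo 2 (-1.07) and under that rescaling (-1.003), and beside Plk1 without cell 7 of embryo 1 (-1.002) or cell 3 of embryo 2 (-1.20).

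The median over all genes compared was 0.31 for this split and that of the 10 genes 0.30. With each cell centred on its own median, Plk1 (0.71), Cdc20 (0.48) and Bub3 (0.43) were also higher in the lower range and Mad2l1 (-1.28), Aurkc (-1.04), Bub1 (-0.999) and Ttk (-0.93) lower, while Aurka was at 0.03 and Bub1b turned from 0.25 to -0.08. Without overlap in both embryos, Bub3 was then the only gene of the 10 left on the higher side, against 4.03% of genes, and Mad2l1, Bub1 and Ttk stayed on the lower, against 5.61%. The 11 to 17 range holds 1 cell of embryo 1, and the part of the protocol in these differences was not tested.

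**Figure D3:**
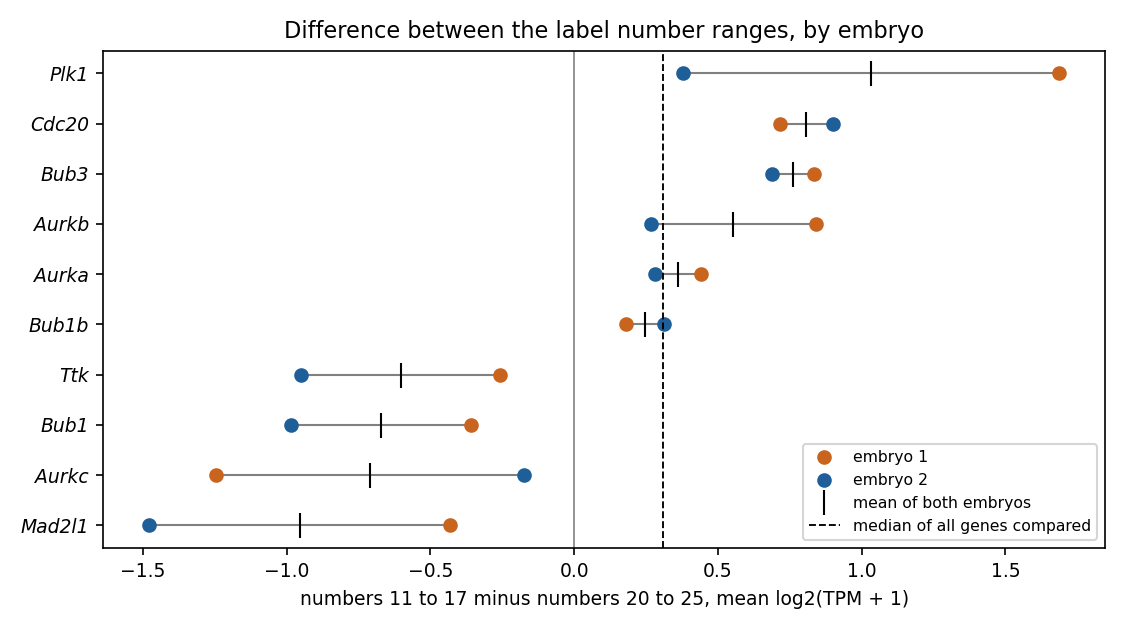
Difference in mean log2(TPM + 1) between label numbers 11 to 17 and 20 to 25 for each gene, in embryo 1 (orange) and embryo 2 (blue), with a tick at the mean of both and a dashed line at the median of 13562 genes (0.31). Each gene lies on the same side of 0 in both embryos, with 6 genes above and 4 below.

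Correlations between the 10 genes across cells were spread on both sides of 0. Over the 45 pairs, Pearson's r of log2(TPM + 1) over 9 cells ranged from -0.64 to 0.78 with a median of -0.08. The highest values joined Bub3 with Plk1 (r = 0.78, Spearman's rho = 0.77) and Bub3 with Cdc20 (r = 0.76, rho = 0.85), then Cdc20 with Plk1 (r = 0.69, rho = 0.75). The lowest were those of Aurkc with Plk1 (r = -0.64) and Bub1 with Cdc20 (r = -0.62). The 9 cells share 2 embryos and 2 number ranges, and Bub3, Cdc20 and Plk1 are 3 of the 4 genes, with Aurka, that were higher in the lower range, so these values are a description.

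The transcript estimates showed how much of each level came from protein-coding RNA. Plk1-201 held 99.6% ± 1.33 (SD, n = 9 cells) of the TPM of Plk1 and Bub1b-201 held 99.3% ± 2.21 of Bub1b. Aurka-203 held 93.4% ± 6.08 of Aurka and Bub1-201 held 92.4% ± 13.2 of Bub1. In cell 6 of embryo 2, Bub1-205, a processed transcript, held 38.4% of Bub1. Cdc20-201 held 84.3% ± 10.1, beside Cdc20-203, a target of nonsense-mediated decay (8.9% on average), and Cdc20-202, which retains an intron (6.8%). Cdc20-202 was listed at 0 in the 3 cells of numbers 11 to 17 and was 2.4% to 18.1% in the 6 cells of 20 to 25. This split was singled out after the values were seen, and the share of transcripts with such a split was not counted.

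Mad2l1 and Bub3 were divided. For Mad2l1, the coding transcript Mad2l1-201 held 71.9%, 57.8% and 27.9% in embryo 1 and from 38.0% to 89.5% in embryo 2, and nearly all the rest was Mad2l1-203, which retains an intron. For Bub3, the coding transcript Bub3-201 held 62.1%, 22.3% and 7.5% in embryo 1 and from 0% to 92.8% in embryo 2, and most of the rest was Bub3-204, annotated for nonsense-mediated decay. In cell 6 of embryo 2, Bub3-201 was listed at 0 while the gene was at 37.7 TPM. Over protein-coding transcripts alone, the embryo difference of Bub3 turned from -0.48 to 0.50 with a pooled SD of 1.86, and that of Mad2l1 was -0.61 with a pooled SD of 1.10.

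For Aurkb and Aurkc the leading transcript changed with the cell, whereas Aurka-203 led in all 9 cells. Aurkc-202 held 17.8% to 93.7% of Aurkc, and all of its TPM was on transcripts annotated as coding. Aurkb-202 and Aurkb-201 held 45.2% and 37.9% of Aurkb on average, and each was listed at 0 in 1 cell. Short-read estimates divide reads between overlapping transcripts, and the error of this division is not in the table.

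**Figure D4:**
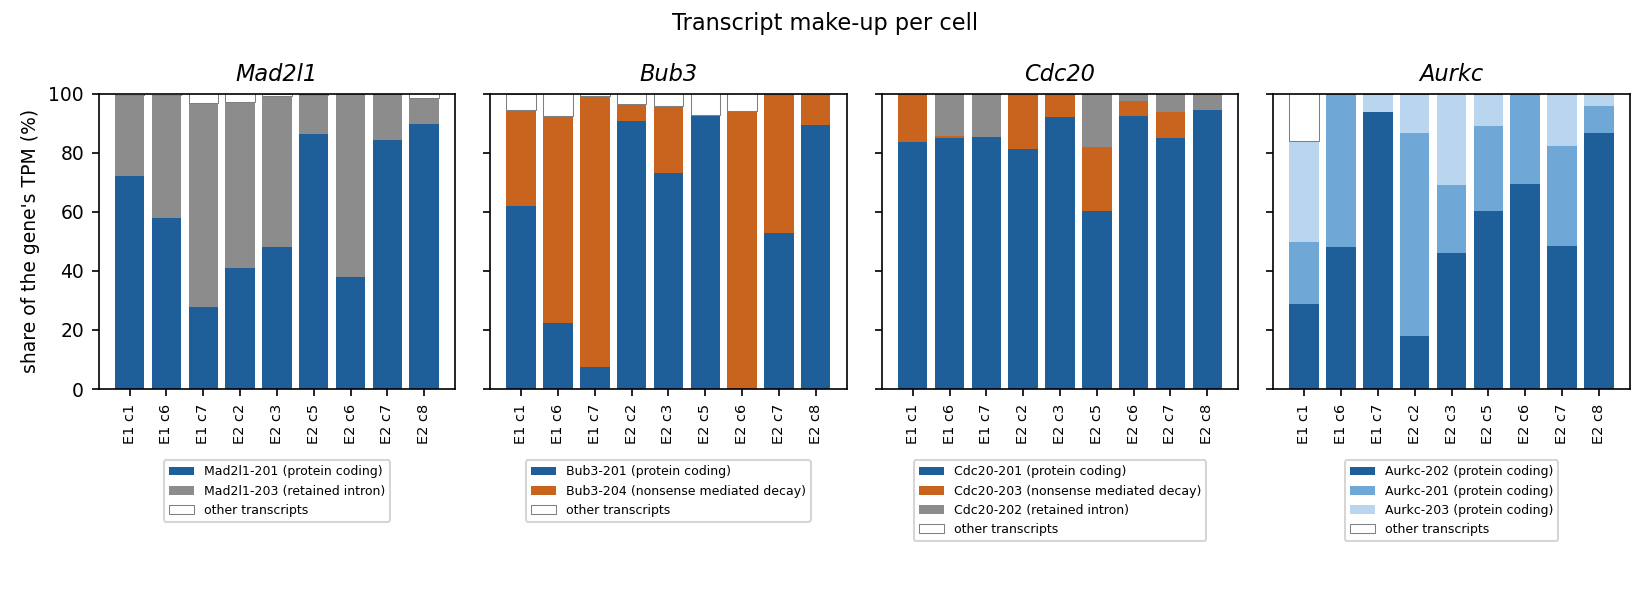
Share of each gene's TPM (%) held by its transcripts in each cell (E, embryo; c, cell) for Mad2l1, Bub3, Cdc20 and Aurkc, with coding transcripts in blue, retained introns in grey, nonsense-mediated decay in orange and other transcripts in white. The Bub3-201 part runs from 0% in cell 6 to 92.8% in cell 5 of embryo 2, while that of Cdc20-201 is 60.2% or more in every cell.

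Replication states at the genes were read for 9 of the 10, and that of Mad2l1, on chromosome 6, was not analysed here. In embryo 2, 8 of the 9 were replicated in all 6 cells, beside 75.5% of 11091 genes compared that had states. The exception was Plk1, which was unreplicated in cell 6, the cell with the lowest percentage replication score (62.4%). Plk1 RNA in that cell was 88.8 TPM, and its difference from the other 5 cells of embryo 2 was -0.08 on log2(TPM + 1), within their SD of 0.27.

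In embryo 1, all 9 genes had the state called unreplicated in all 3 cells, except Bub3 in cell 1. Uniform DNA content yields a single state both before and after replication, so in cells classed as G1 or G2/M this call does not show that a gene was unreplicated. Cell 1 had the higher state, called replicated, in 1438 of the 3327 bins with a state on chromosome 7, 78.2% of all its bins in that state. Bub3 lay in such a stretch at chr7:130440001-131680000, and Plk1 and Aurkc on the same chromosome lay in bins of the lower state. The study names chromosomal abnormalities in embryo 1, and from these states a gain of copies and replication cannot be told apart. Bub3 RNA in this cell was higher than in the other two cells by 0.84 on log2(TPM + 1). Over the 11 genes compared in the stretch, the median of this difference was 0.15, beside 0.29 over all genes compared, and 3 of the 11 (27.3%) were highest in cell 1, against 42.9% of all genes compared. In that cell Plk1, outside the stretch, exceeded the others by more than Bub3 did (1.69). Cell 1 is also the only cell of embryo 1 in the lower number range, so these differences cannot separate its states from the range. In embryo 2, where Bub3 was replicated in every cell, Bub3 RNA was higher in the lower range by 0.69 on log2(TPM + 1). The part of the copy state in the Bub3 level of cell 1 was not tested.

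The remaining genes of the pathway were set beside these 10 as lists. Of 59 genes in 6 lists, 58 had a mean above 1 TPM. Of these, 3 were higher in embryo 2 by 2-fold or more and 1 was lower, against 7.59% and 10.7% of all genes compared. The median difference was 0.15, beside -0.04 over all genes compared. The genes past 2-fold were Spc25 (1.18, pooled SD 1.00), Cdc25c (1.38, pooled SD 1.16), Plk2 (1.47, pooled SD 1.32) and Plk5 (-1.30, pooled SD 0.89).

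For 8 genes that relay or silence the checkpoint signal, none passed 2-fold and the median difference was 0.00. Trip13, the ATPase that takes apart the MAD2 complex, had the highest level (170 TPM) and the largest difference upward (0.33), and Kntc1, a part of the RZZ complex, the largest downward (-0.45). Of 9 outer kinetochore genes, which include the microtubule-binding Ndc80 and Nuf2, 1 was higher by 2-fold and the median was 0.23. The gene was Spc25, at 9.25, 24.02 and 12.2 TPM in embryo 1 and spread from 13.8 to 114 TPM in embryo 2. Dsn1 had the highest level (55.8 TPM) and Spc24 the largest difference downward (-0.25).

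Of 8 partners of the Aurora and polo kinases, none passed 2-fold and the median was 0.01. Incenp, the scaffold of the passenger complex, had the highest level (109 TPM) and the largest difference downward (-0.27), and Sgo1, the protector of centromeric cohesion, the largest upward (0.73). Bora, which helps Aurora A to activate PLK1, was singled out after its values were seen. It was the only gene of the 58 whose cells did not overlap, against 0.833% of all genes compared higher and 2.52% lower. It was at 40.2, 61.5 and 52.6 TPM in embryo 1 and spread from 62.6 to 74.2 TPM in embryo 2, a difference of 0.48 with a pooled SD of 0.18.

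Of 18 genes of the anaphase-promoting complex and its enzymes, none passed 2-fold and the median was 0.10. Ube2c, its ubiquitin-conjugating enzyme, was at 700 TPM on average, Cdc16 had the largest difference upward (0.66) and Anapc10 downward (-0.70). Of 11 genes of mitotic entry and sister separation, 1 was higher by 2-fold and the median was 0.24. Ccnb1 (cyclin B1) had the highest level, 617 TPM, and Mastl the largest difference downward (-0.39). The gene past 2-fold was Cdc25c, at 14.7, 2.81 and 0 TPM in embryo 1 and spread from 5.45 to 17.4 TPM in embryo 2.

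Of 5 polo and NimA paralogs, 4 had a mean above 1 TPM. Nek2 had the highest level (51.5 TPM). Plk2 was at 3.60, 0 and 0 TPM in embryo 1 and spread from 0 to 12.4 TPM in embryo 2, and Plk5 at 20.2, 14.1 and 12.4 TPM in embryo 1 and spread from 0.90 to 15.4 TPM in embryo 2. Both overlapped between the embryos and lay far below Plk1, whose lowest cell was at 65.7 TPM. Plk1 was thus the most abundant polo-like kinase RNA in every cell, with Plk4 at 7.74 to 46.5 TPM and Plk3 at 0 to 1.59 TPM.

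**Figure D5:**
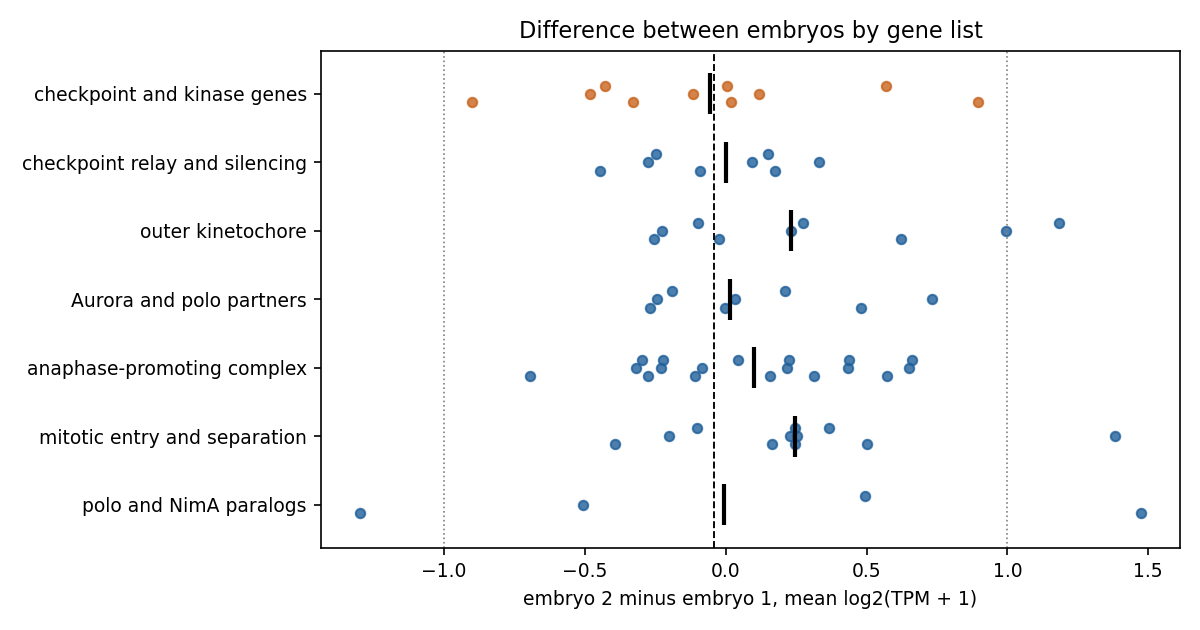
Mean log2(TPM + 1) of embryo 2 less that of embryo 1 for each gene with a mean above 1 TPM, by list, with the 10 checkpoint and kinase genes in orange, black bars at list medians, a dashed line at the median of all genes (-0.04) and dotted lines at 2-fold. The 10 genes lie between -0.90 and 0.90, and 4 genes of the other lists lie outside the dotted lines.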

How the data were processed

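RNA and DNA of 13 blastomeres were described by the labels (26 samples), and 9 cells had columns in the tables. The other 4 cells were not analysed here, and 14 columns per table that belong to no sample of this series were not used. The RNA headers repeat 1 cell name and were assigned by their closing number. The authors deposited TPM per gene and transcript, from about equal numbers of reads aligned with Hisat and estimated with RSEM on GENCODE M25 (mm10). TPM keeps no depth, so no counting interval was given. The deposited replication score per 40 kb bin was 1 (replicated), -1 (unreplicated) or 0 (no data), from reads aligned with BWA 0.7.17-r1188 and an AneuFinder hidden Markov model.

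Differences were means of log2(TPM + 1), embryo 2 minus embryo 1, over nuclear genes with a mean above 1 TPM, and understate changes of low genes. No test was made, since cells of 1 embryo are not replicates. The pooled SD is that between cells within embryos. Genes were placed by GENCODE M21 (mm10), which matched 55141 of 55487 identifiers, and the transcript types come from it. The 10 genes, chosen by name, and the other lists were taken with earlier results of these data known. Named genes outside the 10 were, per list, that with the highest mean TPM and those with the largest difference each way. Alternatives changed the pseudocount, scaling, filter, transcripts and cells used. Scripts were tested on simulated data and ran in pandas 2.3.3 on Python 3.11.15.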

Additional observations from a re-analysis of the deposited data

Results flagged for a closer look

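Among 27 measures over the 6 cells of embryo 2, 1 had a cell far from the others. The percentage replication score of cell 6 was 62.4%, against 74.2% to 80.5% in the other 5 cells and its gap to the nearest was 0.654 of the whole range, above Dixon's critical value for 6 samples. About 1 in 20 such groups is marked by chance. In this cell Plk1 was unreplicated, with 88.8 TPM of Plk1 RNA against 73.6 to 119 TPM in the others.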

How the results depend on the processing

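All 10 genes were above 0.5 TPM and above 5 TPM in every cell. The count of 10 genes past 2-fold between embryos, 0, was also 0 with a pseudocount of 0.1, both other scalings and protein-coding transcripts, was 0 to 1 with 1 cell left out, 2 within numbers 11 to 17 and 1 within 20 to 25. The count without overlap between embryos, 0, was 0 to 1 with 1 cell left out and 3 within numbers 20 to 25. Counts without overlap use all transcripts of a gene, coding or not. Above a mean of 5 TPM, 593 genes were higher by 2-fold and 773 lower, of 8718, against 1029 and 1448 above 1 TPM. Between number ranges, centring on the median of each cell gave 2 genes past 2-fold in place of 1 (Mad2l1 and Aurkc) and 1 in place of 4 higher without overlap, and with 1 cell left out 0 to 2 passed 2-fold: 0 without cell 6 of embryo 1 or cell 2 of embryo 2, and 2 (Mad2l1 and Plk1) without cell 7 of embryo 1 or cell 3 of embryo 2. The count stayed at 1 but Mad2l1 took the place of Plk1 with TPM rescaled to nuclear protein-coding genes and without cell 1 of embryo 1 or cell 8 of embryo 2. The median embryo difference of the 10 genes was -0.18 to 0.03 over all alternatives, and the mean share of Aurka 72.9% to 74.9% with 1 cell left out. Bub3 over protein-coding transcripts alone turned from -0.48 to 0.50. The cause was not tested. No paired analysis was possible because no result comes from a test and the cell numbers name cells of different embryos. Each embryo is 1 biological replicate, and TPM keeps no depth, so a value listed at 0 gives no upper limit.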
